A study of Mus musculus with 4 samples.

Results

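The cytosolic ribosomal protein genes encode the protein part of the ribosomes that translate nuclear-encoded mRNAs. Members were all genes whose symbol is Rpl or Rps followed by a number, together with Rplp0, Rplp1, Rplp2 and Rpsa, without pseudogene symbols, S6 kinases and Rps19bp1. A gene had to be named alone by a probe set of the platform annotation, and where several did, the 1 with the highest mean was used. This gave 62 members of 19938 genes, 38 of the large subunit and 24 of the small subunit. The current RefSeq gene table of GRCm38.p6 lists 88 protein-coding genes that follow the same symbol rule, of which 61 were members. Of the others, 20 were named only by probe sets that also name other genes, among them Rpl3, Rpl11, Rps27 and Rpl22l1. The remaining 7, among them Rps27a, were not listed in the annotation. Neither set was analysed here gene by gene. The 62nd member, Rps4l, is a transcribed pseudogene in that table.

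Transcript levels were measured on Affymetrix mouse gene arrays in primary neurospheres, floating colonies of neural stem and progenitor cells, grown from the walls of the lateral ventricle of C57BL/6 mice aged 9 to 12 weeks. All cells, controls included, received non-targeting siRNAs and viral particles of pCLIG-Pax6, which carry the neurogenic transcription factor Pax6. Cells were then cultured for 36 h and differentiated for 10 h on laminin without growth factors. The DMSO group of 2 arrays was kept in 0.01% DMSO, and the olaparib group of 2 arrays in 100 nM olaparib with 0.01% DMSO. Olaparib blocks PARP1 and PARP2, enzymes that mark DNA breaks for repair. Arrays of the same group are labelled biological replicates. Whether these came from separate mice is not said, so the spread between them may be partly technical. How many cells took up the virus was not stated in the labels. In such bulk samples, fewer cells of a type and less RNA per cell cannot be told apart.

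Ribosomal proteins are made in nearly equal amounts because each ribosome holds a fixed set of them. Their mRNAs typically begin with a terminal oligopyrimidine tract, a C followed by a run of pyrimidines, through which the kinase complex mTORC1 and the RNA-binding protein LARP1 control translation. Several free ribosomal proteins, RPL5 and RPL11 foremost, bind MDM2 and so stabilise p53, which links ribosome assembly to the DNA damage response. The arrays measure the abundance of these mRNAs and not their translation.

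No ribosomal protein gene passed the test. Of the 62 members, 59 lay above the filter on dim genes, and in limma 0 of these 59 passed an adjusted p of 0.05, against 6.22% of all 13956 genes tested (2.84% higher and 3.37% lower). At an unadjusted p under 0.05 there were 3 members, Rps27l, Rpl21 and Rpl6, all higher with olaparib, where 9.18% of all genes tested were higher at that p and 9.88% lower. The changes were small and mostly of 1 sign: 51 of the 59 had a log2 change above 0, against 50.5% of all genes tested. The median change, olaparib minus DMSO, was 0.098 on the log2 scale, against 0.0013 over all genes tested. This median fell to 0.021 under quantile normalization and 0.024 under cyclic loess normalization, where 40 and 31 of the 59 were above 0.

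The groups overlapped for most members, and 1 array of each group stood apart. In 40 of the 59 the groups overlapped, in 16 both olaparib arrays lay above both DMSO arrays, and in 3 both lay below. Over all genes tested, 23.2% were separated upwards and 23.9% downwards, or 47.1% in either direction. The array with the highest value was olaparib replicate 2 in 50 of the 59 members, and in 31.7% of the other genes tested. The array with the lowest value was DMSO replicate 1 in 38 members, and in 22.6% of the other genes. Relative to the mean of a gene over the 4 arrays, the median member lay at -0.12 in DMSO replicate 1, 0.012 in DMSO replicate 2, -0.022 in olaparib replicate 1 and 0.12 in olaparib replicate 2. DMSO replicate 2 and olaparib replicate 1 held nearly the same level. The median SD within a group was 0.095 for DMSO and 0.11 for olaparib over the members, against 0.048 and 0.077 over the other genes.

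**Figure D1:**
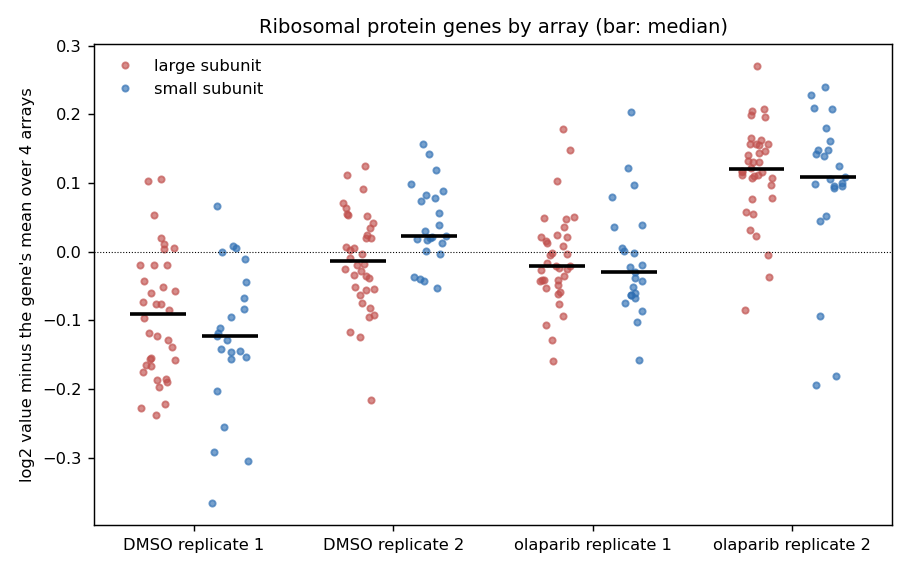
Log2 value of each of the 59 ribosomal protein genes tested minus its own mean over the 4 arrays (vertical axis), by array (horizontal axis), with 1 point per gene, large subunit in red, small subunit in blue and black bars for medians. Olaparib replicate 2 sits highest and DMSO replicate 1 lowest, while the other arrays of both groups lie close to each other.

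The same arrays stood apart for other probe sets with high signal. The 227 other genes with a mean log2 value of at least 11 had a median change of 0.095, and 69.6% of them were above 0. Their medians by array were -0.079 and -0.0016 with DMSO and -0.022 and 0.12 with olaparib. In genes that were not members, the median change was -0.010 at means from 7 to 8 and 0.037 from 9 to 10. It was 0.096 from 11 to 12 and 0.082 from 12 to 14. The brightest 1% of all 19938 genes, on the probe set used for each, lay above 11.19 and 11.24 in the DMSO arrays. In the olaparib arrays this value was 11.24 and 11.37, so the upper end of olaparib replicate 2 was the highest. Under quantile and cyclic loess normalization the median of these 227 genes was 0.016 and 0.0088. What this relation to signal contributes to the changes of the members was not tested beyond these normalizations.

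**Figure D2:**
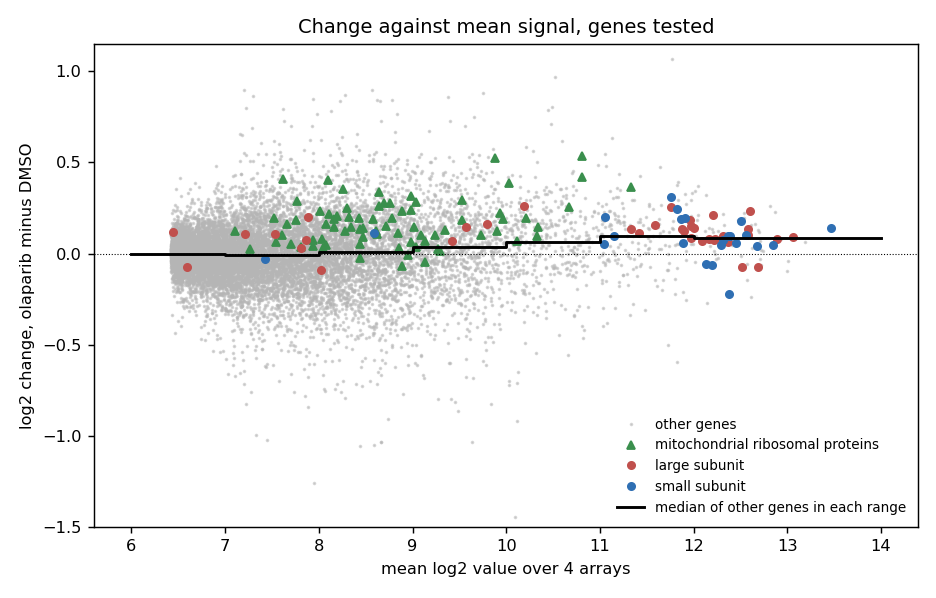
Log2 change (vertical axis) against mean log2 value over the 4 arrays (horizontal axis) for the 13956 genes tested, with large subunit genes in red, small subunit genes in blue, mitochondrial ribosomal protein genes as green triangles and other genes in grey. The black steps are the median of other genes in each range of signal. It goes from -0.010 at 7 to 8 up to 0.096 at 11 to 12 and is 0.082 at 12 to 14. Most ribosomal protein genes lie between 11 and 14.

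The median of the members also moved with single arrays. It was 0.050 without DMSO replicate 1 and 0.17 without DMSO replicate 2. With olaparib replicate 1 left out it was 0.18, and with olaparib replicate 2 left out 0.027. The number of members above 0 was then 41, 52, 53 and 36 of 59. Without olaparib replicate 1, Rps27l, Rpl6 and Rpl8 differed by 0.38, 0.33 and 0.33, against 0.31, 0.25 and 0.11 with all arrays. Rpl8 was named after its value was seen.

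On the brightest probe set of each member, the only one used here, large changes lay outside the intervals. Changes of the dimmer member probe sets above the filter ran from -0.16 to 1.09. The standard errors of the members lay between 0.081 and 0.14, and their 95% intervals between -0.47 and 0.58. All 59 intervals lay inside a 1.5-fold change in either direction. With all 21704 probe sets above the same signal in the fit, 57 of 59 did, and the bounds ran from -0.52 to 0.66.

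**Figure D3:**
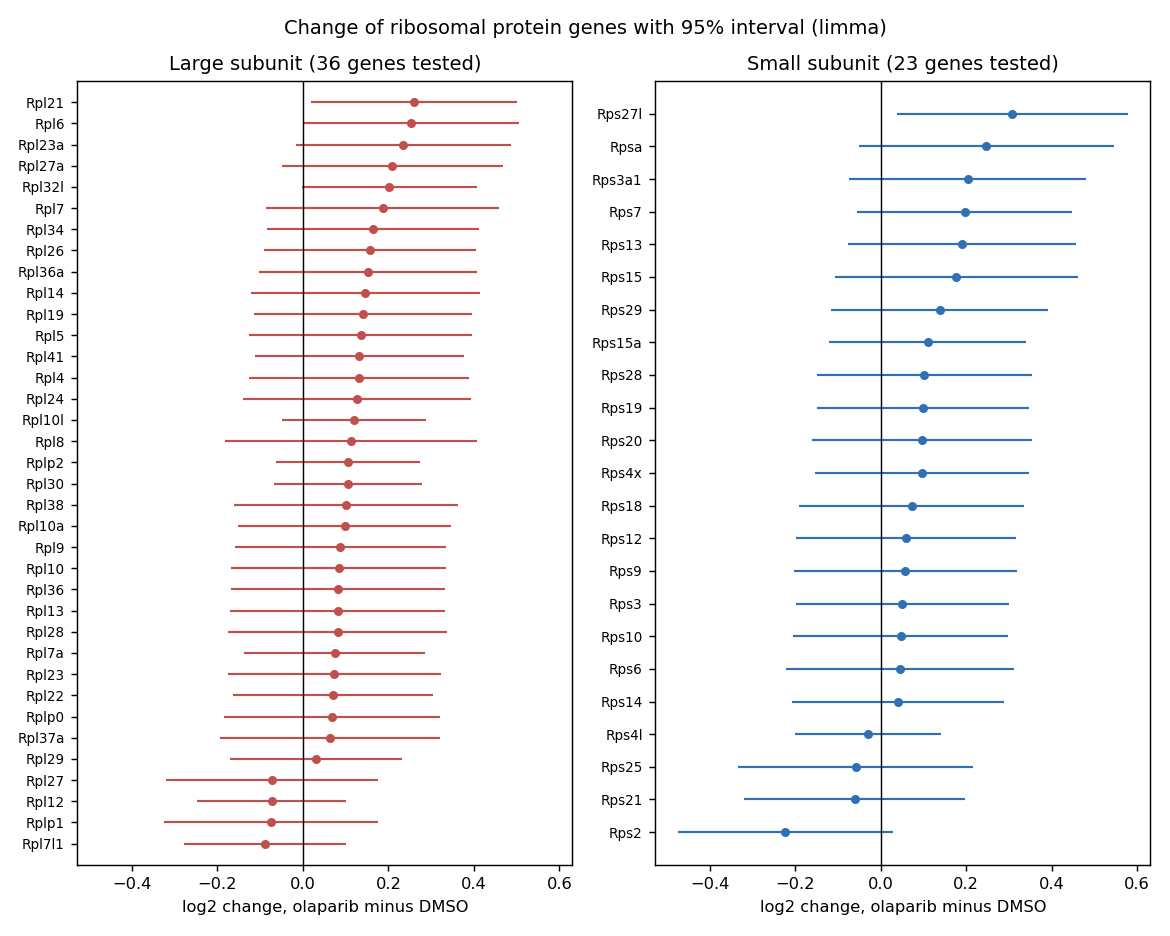
Log2 change with its 95% interval from limma (horizontal axis) for the 36 large subunit genes (red, left) and 23 small subunit genes (blue, right) tested, ordered by change. The intervals of Rps27l, Rpl21 and Rpl6 lie above 0 before adjustment, and the other 56 hold 0.

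Large and small subunit genes had similar medians. Of 36 large subunit genes tested, 32 had a change above 0 and the median was 0.11 (quartiles 0.074 and 0.15). Of 23 small subunit genes, 19 were above 0 and the median was 0.097 (quartiles 0.046 and 0.16). The large minus small difference of the medians was 0.0089. It ran from -0.018 without DMSO replicate 2 to 0.055 without DMSO replicate 1, and was 0.045 under cyclic loess normalization, where the small subunit median was -0.0068. Between arrays of a group, the same difference varied with an SD of 0.034. Groups were separated upwards in 12 of 36 large and 4 of 23 small subunit genes, against 23.2% of all genes tested, and downwards in 2 and 1, against 23.9%. The difference between the subunits in these counts was not tested.

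The start of the mRNA is shown for a few members, since the oligopyrimidine tract is the shared feature by which these transcripts are regulated. RefSeq windows of GRCm38.p6 were matched to 50 of the 62 members, and each line gives 15 bases on either side of the annotated start, 5′ to 3′. Capitals mark the first transcribed base and, only where that base is a pyrimidine, the pyrimidines that run on from it. The first 5 lines hold a run exactly at the annotated start. The last 4 are members with some of the largest member changes in either direction and no run exactly at that start. In the windows of Rps27l, Rpl6 and Rps2, a C followed by at least 4 pyrimidines begins within 10 bases of it. Rpl21, with the second largest change, had no matched window.
Rps6 (chr4:86857353-86857382, minus strand): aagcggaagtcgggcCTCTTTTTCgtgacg
Rps10 (chr17:27635230-27635259, minus strand): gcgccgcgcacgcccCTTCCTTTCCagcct
Rps18 (chr17:33955651-33955680, minus strand): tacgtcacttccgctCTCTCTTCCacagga
Rpl38 (chr11:114668565-114668594, plus strand): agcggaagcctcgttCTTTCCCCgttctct
Rplp2 (chr7:141447636-141447665, plus strand): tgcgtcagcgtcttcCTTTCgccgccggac
Rps27l (chr9:66946071-66946100, plus strand, the upstream of 2 starts): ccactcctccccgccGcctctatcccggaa
Rpl6 (chr5:121204486-121204515, plus strand): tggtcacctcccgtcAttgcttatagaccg
Rpsa (chr9:120127751-120127780, plus strand): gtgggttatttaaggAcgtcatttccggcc
Rps2 (chr17:24720048-24720077, plus strand): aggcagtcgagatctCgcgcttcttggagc

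A C followed by at least 4 pyrimidines stood exactly at an annotated start in 10 of the 50 matched members (20.0%) and in 3.01% of all 27025 genes in the table. Within 10 bases of the start it occurred in 29 of the 50 (58.0%) and in 34.4% of all genes. The motif CCGGAAG, the core bound by ETS factors such as GABP, was present on either strand between 250 bases before and 50 after the start in 19 of 50 members (38.0%) and in 9.93% of all genes. The motif AAGATGGC, a core bound by YY1, was present on either strand in 3 of 50 (6.0%) and 3.19%. These matches describe letters in the windows and not sites of binding. The 10 members with a run at the start had a median change of 0.091, with 9 above 0. The 37 other matched members that were tested had a median of 0.098, with 32 above 0. Members with a run within 10 bases of the annotated start, such as Rps27l and Rpl6, count among these others. The split therefore does not compare mRNAs with and without a tract.

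Among large subunit genes, Rpl21 and Rpl6 had the largest changes. Rpl21, at 10.02 and 10.09 with DMSO and 10.34 and 10.30 with olaparib, differed by 0.26 (SE 0.12, adjusted p = 0.219 in limma). Its groups did not overlap. Rpl6 was at 11.63 and 11.64 with DMSO and 11.81 and 11.97 with olaparib, a change of 0.25 (SE 0.12, adjusted p = 0.260 in limma). Here too the olaparib arrays lay above both controls. Rpl23a, at 12.59 and 12.39 with DMSO and 12.71 and 12.74 with olaparib, differed by 0.23, and Rpl27a, at 12.02 and 12.19 against 12.22 and 12.40, by 0.21. Rpl32l and Rpl7 followed at 0.20 and 0.19, and the groups of Rpl7 overlapped.

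At the other end of the large subunit, 4 genes were lower with olaparib, none past the threshold. Rpl7l1, a relative of Rpl7 whose product is known from ribosome assembly, was at 8.08 and 8.06 with DMSO and 8.02 and 7.94 with olaparib, a change of -0.089. Rpl27, at 12.62 and 12.48 against 12.48 and 12.48, differed by -0.072, a separation that rests on values nearly equal to DMSO replicate 2. Its other 2 probe sets were at 0.12 and 0.23, and the mean of its probe sets gave 0.092. Rpl12, at 6.61 and 6.64 against 6.46 and 6.65, differed by -0.073, with groups that overlapped, on a probe set close to the filter at 6.42, and with olaparib replicate 1 left out the value was 0.018.

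The acidic stalk of the large subunit, built from RPLP0, RPLP1 and RPLP2, recruits and activates the translation factors that hydrolyse GTP. Its genes did not share a direction. Rplp1 was at 12.79 and 12.66 with DMSO and 12.58 and 12.72 with olaparib, a change of -0.075 (SE 0.12). Rplp0, a common reference gene of quantitative PCR, was at 12.10 and 12.02 against 12.05 and 12.21, a change of 0.068 (SE 0.12, 95% interval up to 0.32), which turned to -0.037 under quantile normalization, -0.028 under cyclic loess normalization and -0.014 with olaparib replicate 2 left out. Both overlapped between groups. Rplp2 was at 7.48 and 7.48 against 7.58 and 7.59, a change of 0.11 (SE 0.081, adjusted p = 0.556 in limma), with tight and separated pairs. Its only probe set was far dimmer than those used for Rplp0 and Rplp1.

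Among small subunit genes the extremes were Rps27l and Rps2. Rps27l, a close relative of Rps27 known as a direct p53 target, was at 11.46 and 11.76 with DMSO and 11.84 and 11.99 with olaparib, a change of 0.31 or 1.24-fold (SE 0.13, adjusted p = 0.188 in limma). This was the largest change of any member tested, and its DMSO arrays lay further apart than its olaparib arrays. It ran from 0.16 without DMSO replicate 1 to 0.46 without DMSO replicate 2, and the 15 alternatives gave an adjusted p between 0.0189 and 0.999. Of these, 1 put it past the threshold.

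Rps2, a protein near the mRNA entry channel, was the lowest member, at 12.45 and 12.54 with DMSO and 12.35 and 12.19 with olaparib. Its change was -0.22 (SE 0.12, adjusted p = 0.338 in limma), and both olaparib arrays lay under the controls. It passed under cyclic loess normalization, at -0.33 with an adjusted p of 0.0475, and the 15 alternatives gave between 0.0475 and 0.980. Its other 2 probe sets did not share this change, at 0.016 and 0.25, and their mean with the first gave 0.016.

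Rpsa, the laminin-binding ribosomal protein, was at 11.46 and 11.94 with DMSO and 11.86 and 12.03 with olaparib. Its second brightest probe set, at 11.57 and 11.52 against 11.61 and 11.83, differed by 0.18, and all 5 were above 0. On the brightest, the change of 0.25 (SE 0.14) rested on DMSO replicate 1, since without that array it was 0.0045. Rps3a1, at 10.76 and 11.14 against 11.15 and 11.16, likewise had 1 low DMSO array and differed by 0.20. Rps7, at 11.75 and 11.86 against 11.94 and 12.07, differed by 0.20 with separated groups. Rps6, the protein phosphorylated by S6 kinases, averaged 12.83 ± 0.17 (SD, n = 2) with DMSO and 12.88 ± 0.18 (SD, n = 2) with olaparib and differed by 0.046 (SE 0.13), with overlap. Its value ran from -0.079 to 0.17 with 1 array left out and was -0.069 under cyclic loess normalization. Rps21 and Rps25 had changes of -0.061 and -0.059, and their groups overlapped. That of Rps21 was 0.065 with olaparib replicate 1 left out. The other 5 probe sets of Rps25 lay between 0.0020 and 0.25, and with the mean of its probe sets the change was 0.11.

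The list of ribosomal proteins linked to MDM2 or p53 held 10 genes, of which 7 were tested and 0 passed. All 7 had a change above 0, with a median of 0.13, and 3 were separated upwards, against 16 of all 59 members and 23.2% of all genes tested. Rpl5 was at 11.15 and 11.38 with DMSO and 11.36 and 11.44 with olaparib, a change of 0.13 (SE 0.12) with overlap. It was 0.016 with DMSO replicate 1 left out and 0.25 with DMSO replicate 2 left out. Rpl26, which binds the p53 mRNA, was at 11.51 and 11.51 against 11.64 and 11.69, a change of 0.16 (SE 0.12, adjusted p = 0.550 in limma). Rpl23, Rps3 and Rps14 differed by 0.073, 0.050 and 0.040.

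Of 17 genes mutated in Diamond-Blackfan anaemia, an inherited failure of red cell production, 8 were tested and 0 passed. The median was 0.12, with 7 above 0. Rps19, the gene most often mutated in that disease, was at 11.10 and 11.09 with DMSO and 11.15 and 11.24 with olaparib, a change of 0.098 (SE 0.12) without overlap.

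The paralogs with restricted expression gave little or no signal. Rpl3l, a form of striated muscle, lay between 6.25 and 6.43 on the 4 arrays, and Rpl39l between 6.09 and 6.18. With the retrogene Rps23rg1, at 6.26 to 6.45, these were the 3 members under the filter. Rpl10l, a form of the testis, passed the filter narrowly at 6.36 and 6.41 with DMSO and 6.47 and 6.54 with olaparib. Rps4l was at 7.43 and 7.44 against 7.35 and 7.46. Rpl22, whose paralog Rpl22l1 had no probe set of its own, was at 9.40 and 9.37 against 9.38 and 9.53 and differed by 0.071 (SE 0.11), or -0.0054 with olaparib replicate 2 left out. Without the paralogs, 49 of 55 members were above 0 and the median was again 0.098.

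Among genes of the ribosome outside the symbol rule, Fau, which encodes a small subunit protein fused to a ubiquitin-like domain, was at 11.64 and 11.63 with DMSO and 11.49 and 11.83 with olaparib. Rack1 had no probe set of its own. Translation factors and other genes whose mRNAs carry the oligopyrimidine tract had a median change of 0.018 over 19 tested, with 11 above 0, and 0 passed. The smallest p in this list belonged to Eif4b, a cofactor of the eIF4A helicase, at 9.32 and 9.35 with DMSO and 9.01 and 9.24 with olaparib (-0.21, adjusted p = 0.344 in limma). Next came Eef1b2 (0.17) and Npm1 (0.18), and the groups of both overlapped. Under quantile and cyclic loess normalization the list median was -0.021 and -0.036.

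Of 28 other initiation factor genes tested, 2 rose, 0 fell and 26 did not pass, with a median of 0.086, where 2.84% of all genes tested were called higher and 3.37% lower. Under both quantile and cyclic loess normalization 4 were higher and 2 lower. Over all 13956 genes tested, 558 and 579 were then higher and 660 and 719 lower. The median of the initiation factors was 0.18 with olaparib replicate 1 left out and 0.0068 with olaparib replicate 2 left out. Eif2b1, a subunit of the exchange factor of eIF2, was at 7.52 and 7.55 with DMSO and 7.74 and 8.12 with olaparib and rose by 0.40 (SE 0.10, adjusted p = 0.0251 in limma). Eif1b, a relative of the start codon selection factor eIF1, was at 9.39 and 9.64 against 9.88 and 10.00 and rose by 0.43 (SE 0.12, adjusted p = 0.0370 in limma). Both calls were lost when either DMSO array was left out, without a filter and with all probe sets in the fit. That of Eif2b1 was also lost without olaparib replicate 2, with a change of 0.20, and that of Eif1b under median centring. Over 15 alternatives the adjusted p reached 0.253 for Eif2b1 and 0.829 for Eif1b.

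The list of mTOR and S6 kinase signalling also held Larp1 and its family relatives Larp4 and Larp4b. Of its 16 genes tested, 2 rose, 0 fell and 14 did not pass, with a median of 0.057, against 2.84% of all genes called higher. This median turned to -0.016 with olaparib replicate 2 left out and was 0.094 with olaparib replicate 1 left out. Eif4ebp1, the mTORC1 substrate that blocks the cap-binding protein eIF4E, was at 7.77 and 7.76 with DMSO and 8.18 and 8.13 with olaparib and rose by 0.39 (SE 0.089, adjusted p = 0.00988 in limma). Larp4, which binds poly(A) tails and stabilises mRNAs, was at 9.99 and 10.03 against 10.24 and 10.90 and rose by 0.56 (SE 0.16, adjusted p = 0.0347 in limma). The change of Larp4 rested largely on 1 array, being 0.23 once olaparib replicate 2 was removed and 0.89 with that array alone. Both calls were lost without either DMSO array and with all probe sets in the fit, with adjusted p up to 0.172 and 0.296 over 15 alternatives. That of Larp4 was also lost without olaparib replicate 2, without a filter and with the mean of its probe sets. Larp1, which binds the oligopyrimidine tract itself, differed by 0.21 (adjusted p = 0.280 in limma), Tsc2 by -0.28 and Mtor by -0.18.

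The mitochondrial ribosomal protein genes, which build a separate ribosome for the mitochondrial genome, are the set most like the cytosolic one. Of 77 tested, 6 rose, 0 fell and 71 did not pass, against 2.84% of all genes called higher, and 73 had a change above 0. The number higher was 13 under quantile normalization and 12 under cyclic loess normalization. Of all 13956 genes tested, 558 and 579 were higher under these settings, against 397 with the deposited values. The median change of the mitochondrial set was 0.15. Unlike that of the cytosolic genes, it stood at 0.14 under both quantile and cyclic loess normalization. It was 0.12 and 0.20 without DMSO replicate 1 and 2, and 0.21 and 0.095 without olaparib replicate 1 and 2. The difference between the mitochondrial and cytosolic sets was not tested. The mitochondrial genes were mostly dimmer, with DMSO means from 7.05 to 11.15, while most cytosolic members lay between 11 and 14. What this difference in signal contributes was not tested either. Mrps36, at 9.54 and 9.71 with DMSO and 10.09 and 10.20 with olaparib, rose by 0.52 (SE 0.12, adjusted p = 0.00983 in limma); its product is now known mainly as a component of the 2-oxoglutarate dehydrogenase complex. Mrps30 was at 7.28 and 7.54 against 7.78 and 7.86 and rose by 0.41 (adjusted p = 0.00998 in limma).

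The other 4 were Mrps18b at 0.40, Mrpl2 at 0.35, Mrpl42 at 0.53 and Mrps28 at 0.39, with adjusted p between 0.0132 and 0.0490. None of the 6 passed without DMSO replicate 1 or with all probe sets in the fit, and Mrps36, Mrps18b, Mrpl2 and Mrps28 did not pass without DMSO replicate 2 either. Mrpl42 and Mrps28 were also lost without a filter, and Mrpl2 and Mrps28 under median centring. Adjusted p reached 0.458 for Mrps36, 0.429 for Mrps30, 0.376 for Mrps18b, 0.408 for Mrpl2, 0.879 for Mrpl42 and 0.588 for Mrps28 over 15 alternatives of each.

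**Figure D4:**
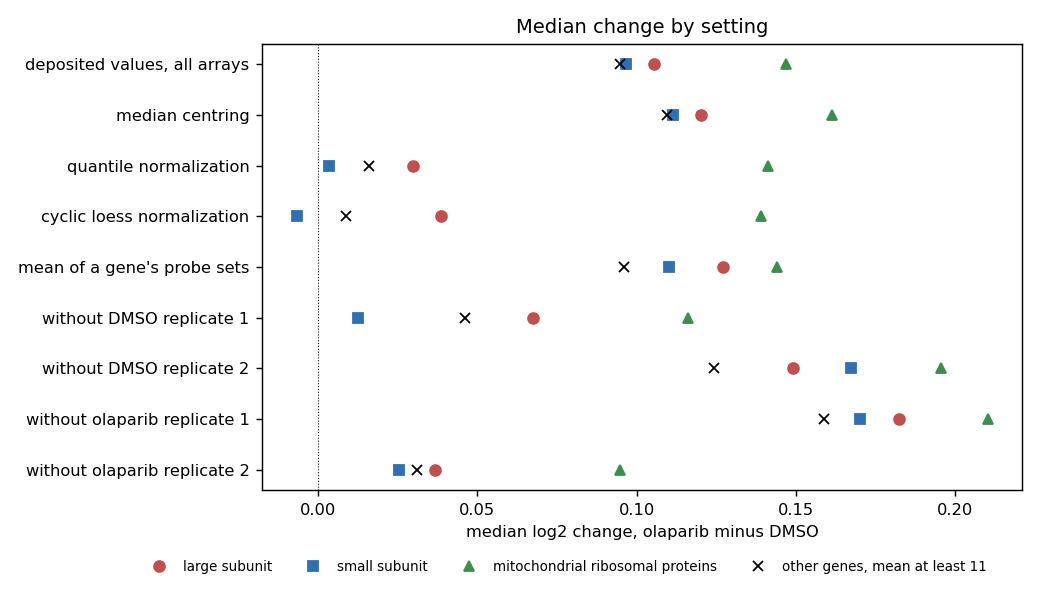
Median log2 change (horizontal axis) of large subunit genes (red circles), small subunit genes (blue squares), mitochondrial ribosomal protein genes (green triangles) and the 227 other genes with a mean of at least 11 (crosses), for the deposited values and 8 alternative settings (vertical axis). Under quantile and cyclic loess normalization the cytosolic sets lie between -0.0068 and 0.038, and the mitochondrial set stays at 0.14.

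The labelled cells were checked against markers. All 9 neural progenitor genes with a probe set of their own were above the filter, and their mean log2 value was 9.63 and 9.63 with DMSO and 9.28 and 9.51 with olaparib. That of 7 immature neuron genes was 8.95 and 9.00 against 8.29 and 8.43. Of the 6 tested, 4 passed the threshold as lower, Dcx, the protein of migrating neuroblasts, Nrep, Nsg2 and Map1b, against 3.37% of all genes tested. Among 9 progenitor genes tested, Gfap passed as lower, with 2 changes above 0, among them Nes (0.23), and 7 below. Among 6 oligodendrocyte genes tested, Cspg4 passed as higher, with 4 changes above 0 and 2 below, Pdgfra (-0.23) and Olig2 (-0.16). Over all genes tested, 2.84% were called higher and 3.37% lower. Microglial genes lay between 6.10 and 6.75, close to the range of genes of unrelated tissues (6.21 to 7.10), and of 6 vascular genes 1 was above the filter. The filter was also passed by 5 of 7 microglial genes and 6 of 9 genes of unrelated tissues, so passing it does not mark a cell type. The part of such shifts between cell types in the ribosomal protein values was not tested.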

How the data were processed

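Total RNA (40 ng) was amplified, labelled with biotin and hybridised, per the labels' protocols. The authors deposited log2 values, 1 per probe set and array, and their medians lay between 6.60 and 6.68. Their background correction and normalization are not given in the sources used here. Of 34760 probe sets, 21640 named 1 gene, 1321 several, and 11799 were unlisted. Each gene kept its highest-mean probe set. Members with more than 1 probe set numbered 38, and many ribosomal protein genes have processed pseudogenes, so a probe set may report more than its gene. Of 19938 genes, 19855 matched the RefSeq table.

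Dim genes, under the 30th percentile (6.42), were left out. The rest entered limma 3.58.1 (lmFit, then eBayes with trend=TRUE, R 4.3.3). P-values were two-sided and adjusted by Benjamini-Hochberg across every gene in the fit. A change is the log2 olaparib mean minus the DMSO mean, and values for an array pair are given in the order replicate 1, replicate 2. An exact permutation test of 2 against 2 arrays could not go below 0.333, so none was run. The members and lists were chosen with earlier results of these data known, and list medians are described without a test. Named genes were those past the threshold, the 6 largest changes in each direction, fixed genes by role, and the genes of smallest p in each list. Other genes, such as Rpl32l, Rps3a1, Rps25 and Mtor, were named outside this rule. The fit was tested on simulated data. Alternatives were no filter, a filter at the 50th percentile, quantile, median and cyclic loess scaling, other eBayes settings, array weights, mean probe sets, all 21704 probe sets in the fit, an adjusted p of 0.1, no paralogs, and leaving out each array. A group left with 1 array is assumed to vary like the other. The number of arrays limits the precision. Sequences came from RefSeq (GRCm38.p6). Figures used matplotlib 3.10.9.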

Additional observations from a re-analysis of the deposited data

How the results depend on the processing

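No member passed in either direction under most settings. The exceptions were 1 member lower under cyclic loess normalization (Rps2), 1 higher with probe sets averaged per gene (Rpl21, 0.33, adjusted p = 0.0189 in limma), and between 0 and 3 higher when 1 array was left out. The member median stayed above 0 in every setting run, between 0.050 and 0.18 for a DMSO or the first olaparib array left out and 0.027 without olaparib replicate 2. The large minus small difference was 0.045 under cyclic loess normalization and between -0.018 and 0.055 with 1 array left out. Over all genes, 397 were higher and 471 lower. These counts were 257 higher without a filter, 719 lower under cyclic loess normalization, 606 and 715 at an adjusted p of 0.1, and 1 and 11 with all probe sets in the fit. With 1 array left out they ran from 97 to 1274 higher and from 161 to 1032 lower. In the leave-out fits the spread comes from the pair of the other group, and the median SD of that pair is wider for olaparib. No paired analysis was possible because the labels give no replicate numbers that link a DMSO array with an olaparib array. Low signal limits Rpl3l, Rpl39l, Rps23rg1, Rpl10l and Rpl12. Rplp2, Rpl30, Rpl29 and Rpl7a also lay well below most members, with DMSO means of 7.48, 7.16, 7.79 and 7.83. How well their probe sets report these transcripts was not tested.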

Other observations

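The other probe sets of the members, each dimmer than its gene's brightest, had a higher median change than the brightest ones. Above the filter there were 125 such probe sets, with a median log2 change of 0.16 and 108 above 0, against 0.098 and 51 of 59 for those used. Of member probe sets with means from 8 to 9, 11 of 13 were above 0 with a median of 0.20, where all 3424 probe sets in that range had a median of 0.014. From 9 to 10 it was 21 of 23 and 0.23, against 0.043 over 1649 probe sets. From 12 to 14 the member median was 0.081 and that of all 226 probe sets 0.10. Probe sets of 1 gene can share sequence with each other and with pseudogenes, so they are not independent.

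Single probe sets reached far larger values than their gene's brightest one. The dimmest of the 8 probe sets of Rpl36 was at 6.39 and 6.77 with DMSO and 8.29 and 7.06 with olaparib, a change of 1.09, while the brightest was at 12.87 and 12.83 against 12.83 and 13.03 and the other 6 had changes between 0.043 and 0.15. A dimmer probe set of Rpl21 was at 7.08 and 7.18 against 7.89 and 8.27, a change of 0.95 (adjusted p = 0.0576 in limma with all probe sets in the fit). One of Rpl19 was at 9.08 and 8.98 against 9.61 and 9.82, a change of 0.68 (adjusted p = 0.0798 in limma). In that fit 0 of 184 member probe sets passed, and 14 were higher and 0 lower at an unadjusted p under 0.05, where 1507 and 1466 of all 21704 were. Of the 38 members with more than 1 probe set, 20 had every probe set above 0, 2 had none above 0 and 16 were mixed. The probe sets that name a ribosomal protein gene together with other genes, 194 of them above the filter, had a median change of 0.14 with 168 above 0.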
